A study of Homo sapiens with 12 samples.

Results

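Vesicle coats are protein shells that bend membranes into transport vesicles, and 33 genes that encode subunits of the COPII coat, the COPI coat, clathrin and the adaptor complexes AP1, AP2 and AP3 are described here. A gene was followed through the probe sets of an exon array whose only gene symbol is that of the member. All 33 had at least 3 probe sets above the signal cutoff, the median of all probe sets, and so belong to the 16883 genes tested. Of 904 probe sets with 1 symbol, 795 were above that cutoff, which does not show that a gene was detected. Only AP1S2 also has probe sets that carry further symbols, 8 in all, which were left out, and its value rests on 4 probe sets. By coat, 10 members belong to COPII, 6 to COPI, 3 to clathrin, 5 to AP1, 5 to AP2 and 4 to AP3. By subunit, 18 are large (SEC23, SEC24, SEC31, the alpha and beta coatomer subunits, the clathrin heavy chain and the large adaptor chains), 4 are medium (ARCN1 and the mu chains) and 11 are small (SEC13, the SAR1 GTPases, COPE, COPZ1, the clathrin light chains and the sigma chains).

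COPII vesicles carry new proteins out of the endoplasmic reticulum: the GTPase SAR1 starts the coat, SEC23 and SEC24 form its inner layer and choose cargo, and SEC13 and SEC31 form the outer cage. COPI, or coatomer, returns proteins from the Golgi to the endoplasmic reticulum. Clathrin forms a lattice of heavy and light chains that is joined to membranes by adaptor complexes, each made of a pair of large chains with a medium and a small chain: AP1 works at the trans-Golgi network and endosomes, AP2 in uptake at the plasma membrane, and AP3 in transport to lysosomes and related organelles.

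Cytoplasmic RNA was taken from U2OS, a line grown from a human osteosarcoma, whose cells all carry K294A, an inactive form of the capping enzyme, under doxycycline control. Induced cells had received doxycycline at 1 ug/ml for 24 h and uninduced cells had not. After removal of ribosomal RNA, 6 of the 12 samples were treated in the tube with Xrn1, an exonuclease that digests RNA with a 5′ monophosphate and spares capped RNA. This gives 4 groups of 3 arrays: uninduced untreated, uninduced Xrn1, induced untreated and induced Xrn1. The series asks which cytoplasmic RNAs are re-capped by the cytoplasmic capping enzyme complex. All groups come from 1 line, so values describe that line. The labels call the replicates biological but do not say whether they are separate cultures. Nor do they say whether treated and untreated samples of one number come from the same RNA. The p-values therefore measure only the spread between these samples. For values as deposited that spread is 1 SD of 0.418 shared by all genes, and a gene's own spread does not enter.

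Arrays differ in a way that follows the order of the deposited table and touches every result on these genes. In 4 of the 12 arrays the median level of the probe sets steps at the same place, to within a few rows. That place comes after 363042 probe sets above the signal cutoff in order of probe set ID. From the first to the second part of the table, the median deviation of an array's genes from their median over the 12 arrays changed by -1.12 in induced untreated replicate 2, by -0.97 in uninduced Xrn1 replicate 2, by 1.03 in uninduced untreated replicate 2 and by -0.60 in induced untreated replicate 1. In the other 8 arrays it changed by between -0.17 and 0.27. Of the members, 13 lie in the first part (SEC24A, SEC24B, SEC24D, SEC31A, SEC13, SAR1B, COPA, COPB2, CLTB, AP1S1, AP2M1, AP3B1 and AP3S1) and 20 in the second. By RefSeq, the genes of those in the first part are on chromosomes 1, 3, 4, 5 and 7, and those in the second on chromosomes 9 to 12, 14, 16, 17, 19, 20, 22 and X. The last 7356 probe sets, some of which go back to the first level, hold none of a member. Values are as deposited unless called centred, which means that each array was centred on its median gene within each part, a scaling chosen after the data were seen. The source of the step was not tested.

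**Figure D1:**
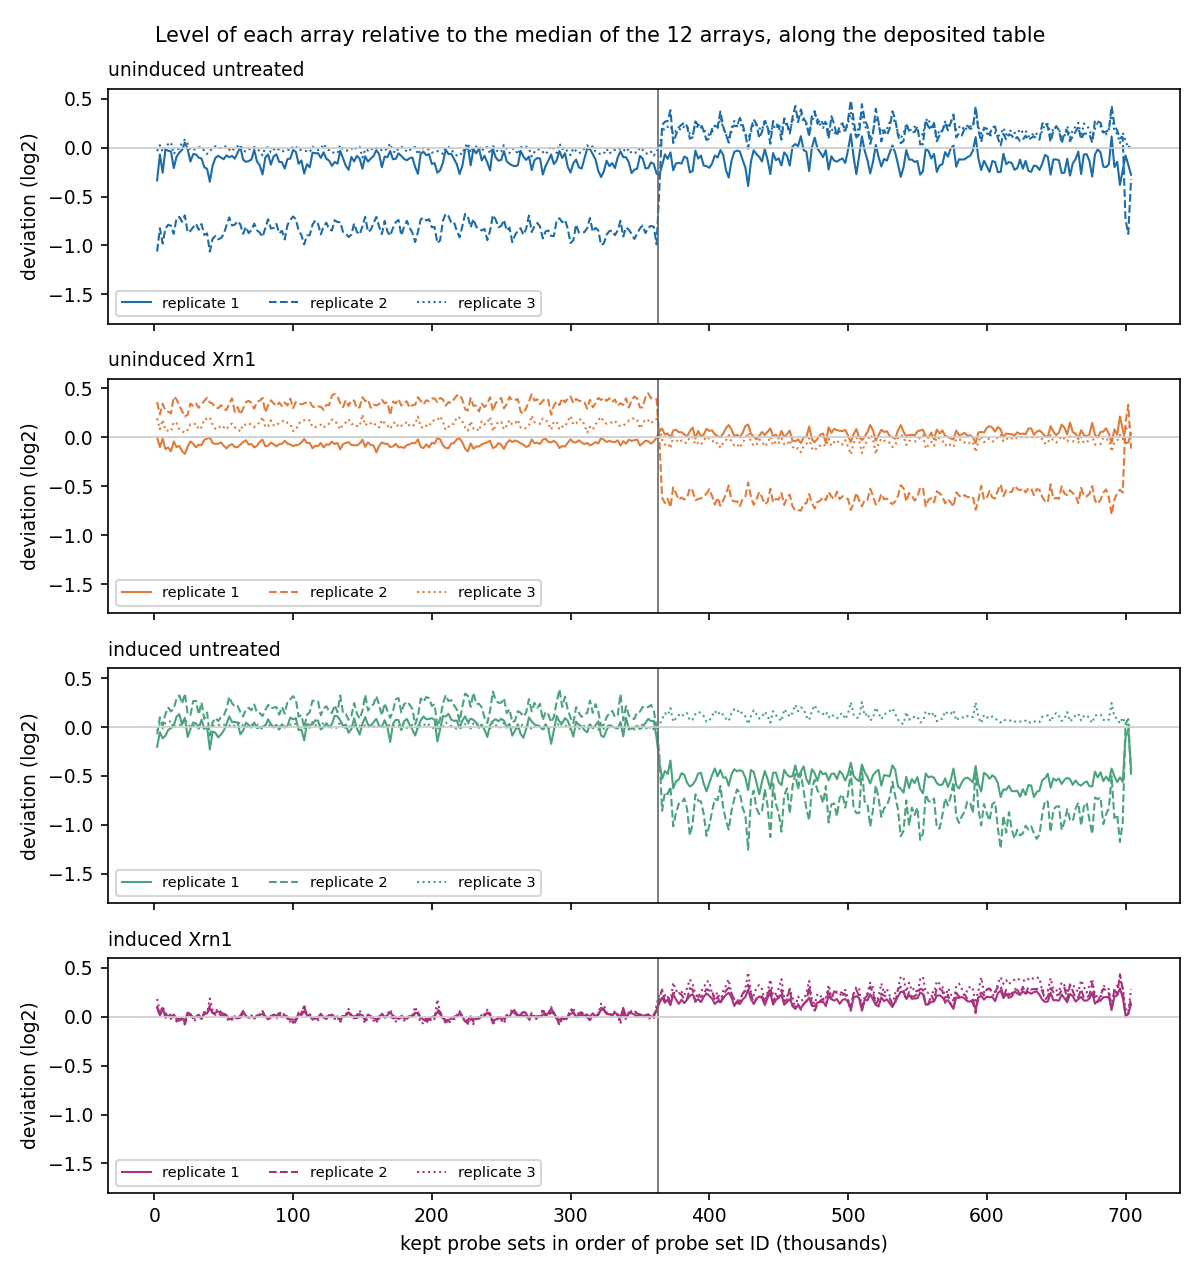
Median deviation of each array from the median of the 12 arrays (log2), in bins of consecutive probe sets above the signal cutoff. Bins run along the table in order of probe set ID, with 1 panel per group and 1 line per replicate. At the grey line, after 363042 probe sets, uninduced untreated replicate 2 steps up, and uninduced Xrn1 replicate 2 and induced untreated replicates 1 and 2 step down.

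Markers of the labelled cell type were high in part. The mesenchymal genes VIM, SPARC, FN1 and COL1A1 had group means of 7.79, 8.63, 7.22 and 8.85 in uninduced untreated RNA. The signal cutoff, the median of all probe sets, was 2.04. The other mesenchymal markers were CD44 at 6.03, THY1 at 4.81, RUNX2 at 3.59 and COL1A2 at 3.05. Of 16 markers of other cell types, the keratin genes KRT8 and KRT18 had means of 7.60 and 6.46. The other 14 lay between 2.06 for the blood marker PTPRC and 4.29 for CD3E, a range that also holds RUNX2 and COL1A2. With Xrn1, 2 of these 16 fell and 1 rose in uninduced cells, where 31.8% of all genes fell and 7.24% rose. In induced cells none of the 16 fell and 6 rose, where 17.8% of all genes fell and 21.6% rose. Centred, 14 of them could be measured, without KRT8 and KRT18, the 2 that had fallen. Of these 14, none fell and 10 rose in uninduced cells, where 32.3% of all genes fell and 34.8% rose. In induced cells none fell and 4 rose, where 27.3% of all genes fell and 24.4% rose. The part of these markers in the results was not tested. RNGTT, the gene of the capping enzyme, changed with Xrn1 by -1.01 in uninduced and -1.52 in induced cells (after centring -1.10 and -1.21), and with induction by 0.21 in untreated RNA (adjusted p = 0.685). Whether its probe sets match the transgene is not stated in the labels, so its level checks no label.

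Without induction, Xrn1 lowered the RNA of most coat genes relative to the other RNAs on the arrays. The clathrin heavy chain CLTC fell 14.9-fold, the inner COPII subunit SEC23A 10.6-fold and the coatomer subunit COPB1 10.4-fold, while the small subunits SEC13, CLTB and AP1S1 stayed within 0.23 log2 units of their untreated mean. Of the 33 members, 26 fell and none rose (limma, adjusted p below 0.05). Over all genes, 31.8% fell and 7.24% rose. The median change was -1.77 for the members and -0.27 for all genes, with a standard error of 0.34 for each gene. After centring within each part of the table, 25 members fell and none rose, where 32.3% of genes fell and 34.8% rose, and the medians were -1.64 and 0.14. Leaving out the 4 arrays that step gave 30 falls, with 43.9% of all genes lower. That setting keeps replicates 1 and 3 of each uninduced group and only replicate 3 of the induced untreated arrays. A fall is relative, because normalisation gives all arrays like distributions. Under at least 1 scaling or other setting that kept all arrays, 9 of the 26 lost their call: CLTA, AP2A1, AP2M1, AP2S1, AP3D1, AP3B1 and SEC24D with cyclic loess, and SAR1B and SEC24A with each gene's own spread.

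With K294A induced, most of the same coat genes were lower after Xrn1. CLTC again fell the furthest, 8.18-fold as deposited and 11.7-fold centred. As deposited COPB2 at 4.67-fold and SEC23A at 4.62-fold came next, and centred it was SEC23A at 6.62-fold and COPB1 at 6.4-fold, with COPB2 at 3.76-fold. Of the 33 members, 21 fell and 1, COPE, rose. Over all genes, 17.8% fell and 21.6% rose. The median change was -1.07 for the members and 0.10 for all genes. After centring, 23 fell and 1 rose, here the sigma chain AP1S1, with 27.3% of all genes lower and 24.4% higher, and the medians were -1.05 and 0.10. The 2 comparisons share no array, and 20 members fell in both, which is 76.9% of those that fell in uninduced cells and 95.2% of those that fell in induced cells. Over all genes, 14.4% fell in both, which is 2438 of the 5367 genes that fell in uninduced and of the 3000 in induced cells. After centring 22 members fell in both, 88.0% and 95.7%, and 25.2% of all genes did. These were 4108 of the 5252 genes that fell in uninduced and of the 4447 that fell in induced cells. Centred, most genes that fell in 1 comparison thus fell in both, coat genes or not. SEC13, COPE, CLTB, AP1S1, AP1S2 and AP2A2 fell in neither comparison under either scaling. In uninduced untreated RNA SEC13, COPE and AP2A2 had low means of 3.46, 3.81 and 4.01. These lie between the blood markers PTPRC (2.06) and CD3E (4.29). So do AP3B1, SEC24A, SEC24D and SAR1B, which fell in both comparisons, with means of 3.69, 3.89, 3.91 and 4.15. CLTB, AP1S1 and AP1S2 had means of 4.92, 4.98 and 5.01. Whether a low signal hides a fall was not tested. With each gene's own spread, 9 of the 21 lost their call: SEC23B, all 4 SEC24 genes, SAR1B, AP2M1, AP3B1 and AP3S1.

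**Figure D2:**
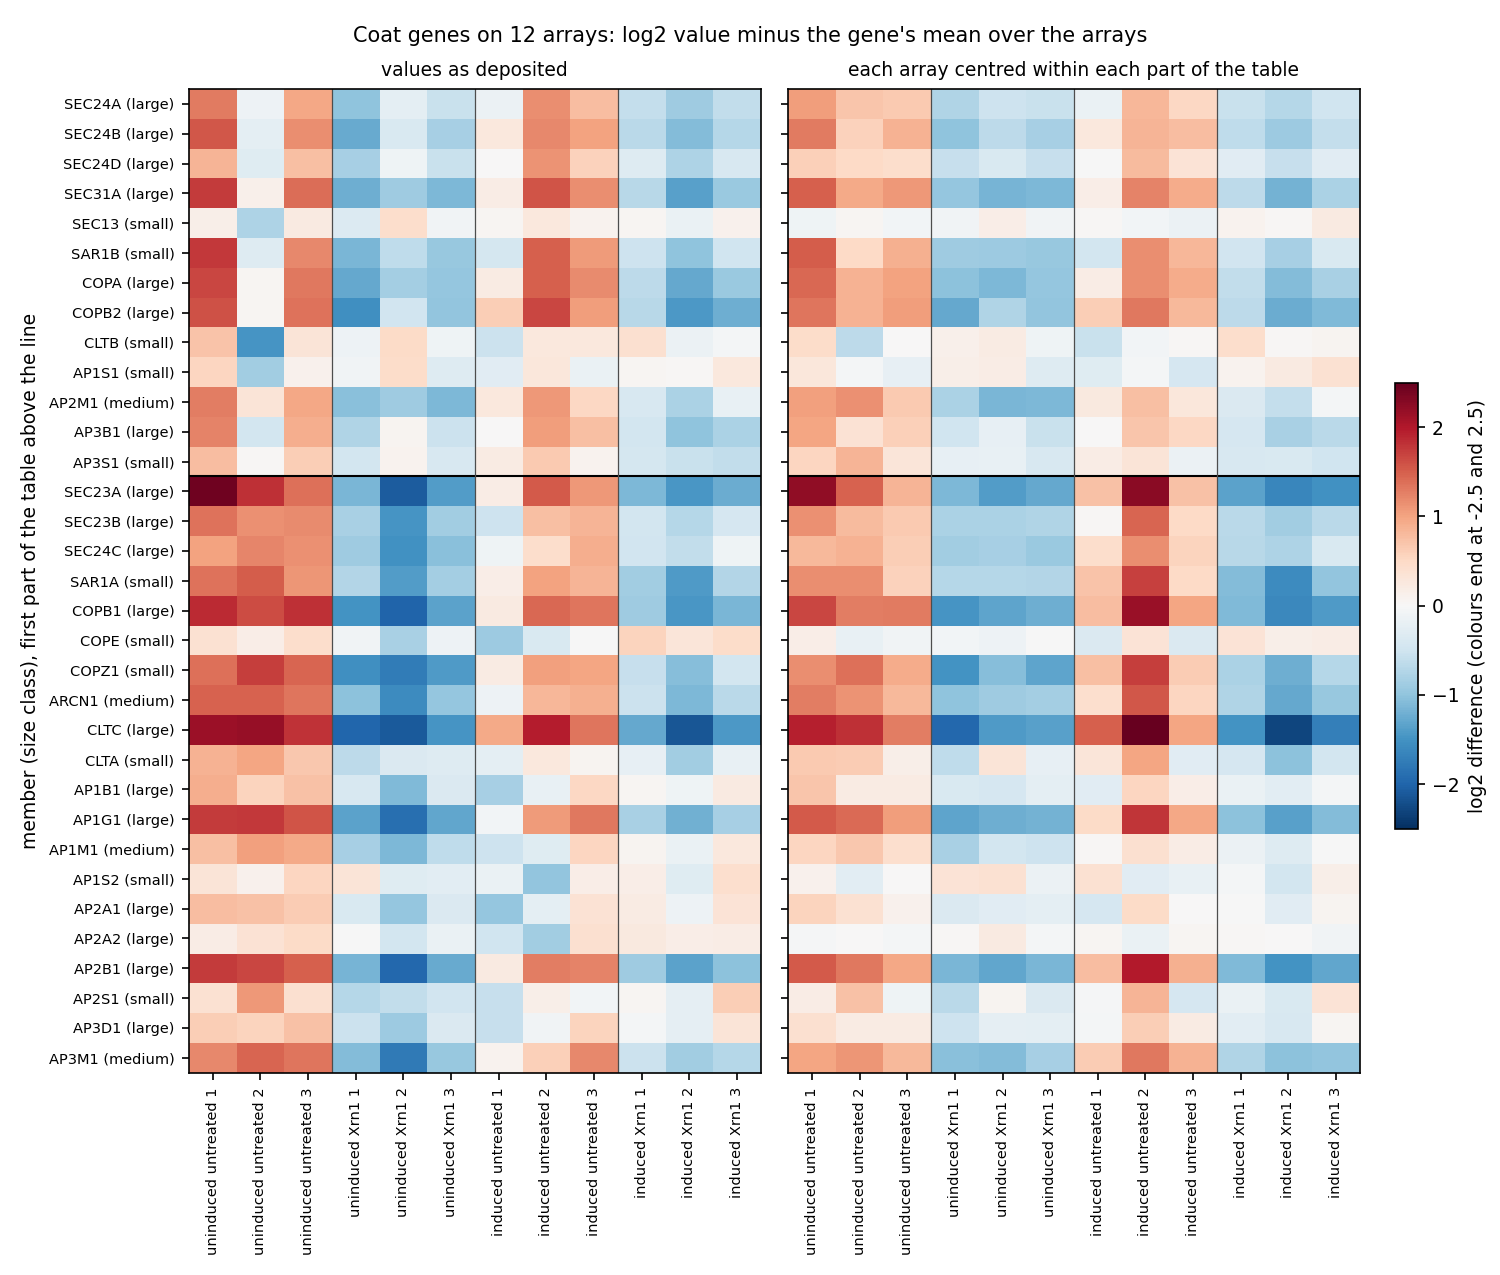
Log2 value of each coat gene on each array minus its mean over the 12 arrays, as deposited (left) and after each array was centred within each part of the table (right), with genes of the first part above the black line. Untreated arrays are red and Xrn1 arrays blue for most genes, the rows of SEC13 and AP2A2 are pale on the right, and in the left panel uninduced untreated replicate 2 is pale or blue above the line and mostly red below it.

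Within COPII, 9 of 10 genes fell in both comparisons, and the exception was SEC13. SEC23A, the subunit that stimulates the GTPase of the coat, read 6.82, 6.21 and 5.76 in uninduced untreated and 3.24, 2.31 and 3.00 in uninduced Xrn1 RNA, and 4.58, 5.92 and 5.47 against 3.27, 2.93 and 3.15 in induced cells. All 6 Xrn1 values lay below all 6 untreated values. Its change was -3.41 (95% interval -4.08 to -2.74, adjusted p = 5.09e-21) in uninduced cells. In induced cells it was -2.21 (-2.88 to -1.54, adjusted p = 8.86e-09). After centring it was -2.78 and -2.73 (adjusted p = 7.08e-05 and 0.00013). Its paralogue SEC23B fell by less, -2.28 and -0.89, or -1.65 and -1.41 after centring.

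All 4 SEC24 genes, which encode the cargo-binding subunits, fell in both comparisons. SEC24A changed by -1.31 and -1.30, SEC24B by -1.65 and -1.65, SEC24C by -2.28 and -0.82, and SEC24D by -0.93 and -1.07. After centring SEC24A to SEC24D stood at -1.40, -1.75, -1.64 and -1.03 in uninduced cells, all with groups that did not overlap, and at -0.98, -1.34, -1.33 and -0.76 in induced cells. With cyclic loess over all genes the change of SEC24D in uninduced cells was -0.54, without a call. SEC24D read 4.34, 3.17 and 4.23 in uninduced untreated against 2.65, 3.37 and 2.92 in uninduced Xrn1 RNA as deposited, so that replicate 2, an array that steps, was the lowest of the untreated and the highest of the treated values. Centred, the same arrays read 4.09, 3.99 and 3.92 against 2.90, 3.10 and 2.92. Its call in uninduced cells ended without untreated replicate 1 (-0.72) or 3 (-0.77) and without Xrn1 replicate 1 (-0.77) or 3 (-0.90), and its call in induced cells without untreated (-0.80) or Xrn1 replicate 2 (-0.94).

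The calls of SEC23B and SEC24C in induced cells, with adjusted p of 0.0277 and 0.0447, were close to the threshold. Each ended when any array of the comparison other than induced untreated replicate 1 was left out, with SEC23B between -0.95 and -0.65 and SEC24C between -0.96 and -0.57. SEC24C also lost its call without uninduced untreated replicate 3 or uninduced Xrn1 replicate 3. After centring, the adjusted p were 0.00115 and 0.000129.

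The outer cage of COPII was split between its subunits. SEC31A, the large rod-forming chain, read 6.24, 4.63 and 5.89 in uninduced untreated and 3.28, 3.61 and 3.38 in uninduced Xrn1 RNA, and 4.68, 6.07 and 5.67 against 3.81, 3.13 and 3.58 in induced cells. The groups did not overlap, and the change was -2.17 and -1.97 (centred -2.26 and -1.66). Its small partner SEC13, which also serves in the nuclear pore, read 3.75, 2.82 and 3.83 against 3.25, 4.03 and 3.51 in uninduced and 3.64, 3.86 and 3.69 against 3.65, 3.43 and 3.71 in induced cells. These groups overlapped, with changes of 0.13 (95% interval -0.54 to 0.80) and -0.13 (-0.80 to 0.53). Centred, they were 0.03 (-0.25 to 0.32) and 0.18 (-0.11 to 0.46).

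Both SAR1 genes, which encode the GTPases that start the COPII coat, fell although they are small. SAR1A changed by -2.32 and -1.67, and SAR1B by -1.79 and -1.38. Centred values were -1.68 and -2.19 for SAR1A and -1.88 and -1.07 for SAR1B. SAR1B varied widely among untreated arrays as deposited, at 5.04, 2.95 and 4.47 in uninduced and 2.83, 4.77 and 4.34 in induced cells, with SDs of 1.08 and 1.02, while its Xrn1 values kept to between 2.12 and 2.77.

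In COPI, every subunit measured here except COPE fell in both comparisons. COPB1, the beta subunit of coatomer, read 5.67, 5.42 and 5.62 in uninduced untreated and 2.30, 1.79 and 2.46 in uninduced Xrn1 RNA, and 4.02, 5.24 and 5.13 against 2.91, 2.35 and 2.64 in induced cells. The lowest untreated value was above the highest treated one by more than 1 log2 unit. Its change was -3.38 (adjusted p = 1.01e-20) and -2.16 (adjusted p = 1.97e-08), and -2.75 and -2.68 after centring (adjusted p = 1.89e-05 and 4.28e-05). The alpha subunit COPA changed by -2.05 and -1.91 and the beta prime subunit COPB2 by -1.99 and -2.22. ARCN1, the delta subunit, changed by -2.62 and -1.31. Centred, COPA stood at -2.14 and -1.60, COPB2 at -2.08 and -1.91, and ARCN1 at -1.99 and -1.83.

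The small coatomer subunits went different ways. COPZ1, the zeta subunit, read 6.83, 7.19 and 6.91 in uninduced untreated and 3.93, 3.71 and 4.03 in uninduced Xrn1 RNA, and 5.67, 6.47 and 6.44 against 4.89, 4.39 and 5.00 in induced cells. Both values of its change, -3.09 and -1.44 (centred -2.45 and -1.95), passed the test, and its groups did not overlap. COPE, the epsilon subunit, read 3.85, 3.65 and 3.92 in uninduced untreated and 3.39, 2.68 and 3.35 in uninduced Xrn1 RNA, and 2.58, 3.11 and 3.47 against 4.03, 3.79 and 3.93 in induced cells. It changed by -0.67 without passing the test in uninduced cells (adjusted p = 0.107) and rose by 0.86 in induced cells (adjusted p = 0.0328). In uninduced cells its groups did not overlap as deposited, and it was called lower without the 4 arrays that step. After centring its changes were -0.03 and 0.34, and neither passed (adjusted p = 0.884 and 0.129). The rise also ended without any array of its comparison except induced untreated replicate 3, at 0.63 without induced untreated replicate 1 and between 0.80 and 0.93 without one of the others.

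Of the clathrin chains the heavy chain fell in both comparisons, and the light chain CLTB in neither. CLTC, the heavy chain that forms the legs of the triskelion, read 8.05, 8.09 and 7.71 in uninduced untreated and 3.92, 3.81 and 4.42 in uninduced Xrn1 RNA. In induced cells it read 6.85, 7.87 and 7.24 against 4.63, 3.77 and 4.47. Every Xrn1 value was more than 2 log2 units below every untreated value. The change was -3.90 (95% interval -4.57 to -3.23, adjusted p = 1.01e-26) in uninduced cells. In induced cells it was -3.03 (-3.70 to -2.36, adjusted p = 1.06e-15). Both p-values rest on the common SD of all genes. After centring the changes were -3.26 (-4.04 to -2.48, adjusted p = 2.33e-05) and -3.55 (-4.33 to -2.77, adjusted p = 3.87e-05).

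The light chains regulate the lattice. CLTA read 6.28, 6.42 and 6.08 in uninduced untreated against 4.76, 5.06 and 5.10 in uninduced Xrn1 RNA, and 5.17, 5.69 and 5.48 against 5.22, 4.56 and 5.23 in induced cells. It changed by -1.29 in uninduced cells, a call as deposited (adjusted p = 0.000785), and its change of -0.44 in induced cells did not pass (adjusted p = 0.314). Centring exchanged the calls: -0.65 without a call in uninduced (adjusted p = 0.0773) and -0.96 with a call in induced cells (adjusted p = 0.0208). CLTB read 5.79, 3.59 and 5.39 in uninduced untreated against 4.95, 5.55 and 4.97 in uninduced Xrn1 RNA, and 4.53, 5.33 and 5.33 against 5.48, 4.92 and 5.02 in induced cells. The untreated value of 3.59 comes from an array that steps, and the groups overlapped in both comparisons, with changes of 0.23 and 0.07 (centred 0.14 and 0.38). The call of CLTB in uninduced cells turned with the setting: it fell by 0.63 without the 4 arrays that step and rose by 1.23 with cyclic loess within each part.

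**Figure D3:**
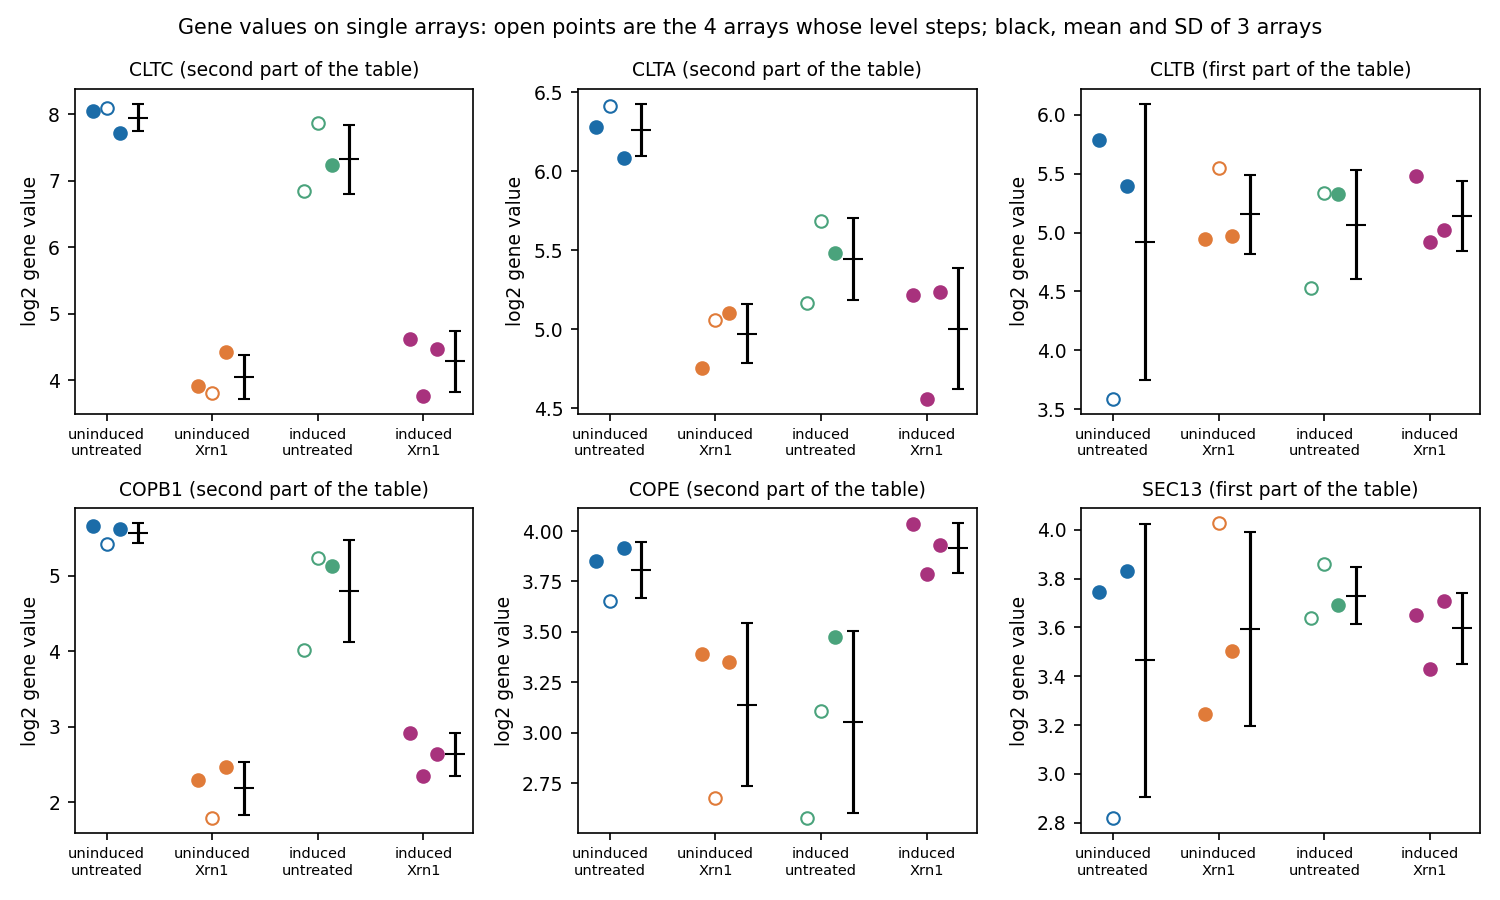
Log2 gene values of CLTC, CLTA, CLTB, COPB1, COPE and SEC13 on single arrays in the 4 groups, with the mean and SD of 3 arrays in black; open points are the 4 arrays that step, and the axes do not start at 0. CLTC and COPB1 are lower in both Xrn1 groups with no overlap, while CLTB and SEC13 overlap, with uninduced untreated replicate 2 lowest.

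Among the AP1 genes, 3 of 5 fell in uninduced cells and 1 in induced cells. AP1G1, the large gamma chain, read 5.80, 5.82 and 5.62 in uninduced untreated and 2.72, 2.17 and 2.76 in uninduced Xrn1 RNA, and 3.99, 5.12 and 5.37 against 3.25, 2.86 and 3.24 in induced cells. No values of treated and untreated arrays overlapped, and the change was -3.20 and -1.71 (centred -2.57 and -2.23). The large beta chain AP1B1 and the mu chain AP1M1 fell in uninduced cells, by 1.35 and 1.77, and gave 0.22 and 0.15 without a call in induced cells. Centred, AP1B1 gave -0.72 and -0.30 and AP1M1 -1.14 and -0.37, with calls in uninduced cells for both.

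The sigma chains of AP1 fell in neither comparison, as deposited or centred. AP1S1 read 5.59, 4.19 and 5.17 in uninduced untreated and 4.96, 5.52 and 4.74 in uninduced Xrn1 RNA, and 4.77, 5.34 and 4.88 against 5.10, 5.09 and 5.32 in induced cells. The groups overlapped, and the changes of 0.09 and 0.17 did not pass. After centring it gave -0.00 in uninduced cells and rose by 0.49 in induced cells (adjusted p = 0.0376). In uninduced cells it fell by 0.53 without the 4 arrays that step and rose by 1.08 with cyclic loess within each part. AP1S2 gave -0.40 and 0.42, with groups that overlapped, and 0.23 and -0.10 after centring.

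AP2, the adaptor of endocytosis, held genes that fell strongly beside genes that did not. AP2B1, the large beta chain that binds clathrin, read 6.35, 6.28 and 6.10 in uninduced untreated and 3.45, 2.64 and 3.35 in uninduced Xrn1 RNA, and 4.83, 5.88 and 5.85 against 3.73, 3.28 and 3.58 in induced cells. Its groups lay apart in both comparisons, with changes of -3.10 and -1.99 (centred -2.46 and -2.51). The alpha chain AP2A2 read 3.85, 4.03 and 4.16 against 3.67, 3.21 and 3.52 in uninduced and 3.18, 2.80 and 4.07 against 3.92, 3.84 and 3.86 in induced cells, where the groups overlapped. It did not pass in uninduced (-0.55, adjusted p = 0.197) or induced cells (0.53, adjusted p = 0.217). Its centred changes of 0.09 (-0.19 to 0.36) and 0.01 (-0.27 to 0.28) had the narrowest intervals of all members. Its mean in uninduced untreated RNA, 4.01, was below that of the blood marker CD3E (4.29). As deposited AP2A2 rose by 0.89 in induced cells once induced untreated replicate 3 was left out. In uninduced cells its groups did not overlap as deposited, and it was called lower with the median of probe sets.

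The other alpha chain, AP2A1, fell by 1.28 in uninduced cells (centred -0.64) and gave 0.43 in induced cells (centred -0.09). Its call ended with cyclic loess over all genes (-0.17) and within each part (-0.07). AP2M1, the mu chain that reads the sorting signals of cargo, read 7.93, 6.97 and 7.61 against 5.61, 5.77 and 5.52 in uninduced and 6.91, 7.73 and 7.16 against 6.25, 5.86 and 6.47 in induced cells, and fell by 1.87 and 1.07 (centred -1.96 and -0.76). With cyclic loess over all genes both calls ended (-0.10 and -0.05). The second also ended with cyclic loess within each part (0.18), and without induced untreated (-0.84) or induced Xrn1 replicate 2 (-0.91). The sigma chain AP2S1 fell in uninduced cells as deposited (-1.22, adjusted p = 0.00153) and did not after centring (-0.59, adjusted p = 0.117), and with cyclic loess within each part it rose by 0.75. Its 0.32 in induced cells did not pass.

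In AP3, the adaptor of lysosome-related transport, 3 of 4 genes fell in each comparison, and all 4 in both after centring. AP3M1, the mu chain, read 5.29, 5.56 and 5.44 in uninduced untreated and 3.02, 2.33 and 3.14 in uninduced Xrn1 RNA, and 4.19, 4.70 and 5.30 against 3.55, 3.23 and 3.38 in induced cells, and it fell by 2.59 and 1.34 with no overlap (centred -1.96 and -1.86). The beta chain AP3B1 changed by -0.97 and -1.36 (centred -1.06 and -1.05). Its call in uninduced cells ended without untreated replicate 1 (-0.63) or 3 (-0.80), or Xrn1 replicate 1 (-0.80) or 3 (-0.90), and with cyclic loess over all genes (-0.74). The delta chain AP3D1 changed by -1.23 and 0.06 (centred -0.59 and -0.46), and the sigma chain AP3S1 by -0.73 and -0.86 (centred -0.82 and -0.55). The call of AP3D1 in uninduced cells ended with cyclic loess over all genes (-0.25) and within each part (-0.14). AP3S1 passed in uninduced cells without uninduced untreated replicate 2 (-0.95) or induced untreated replicate 3 (-0.73). In induced cells its call ended without induced untreated replicate 2 (-0.69) or without an induced Xrn1 replicate (-0.91, -0.85 and -0.82 without replicates 1 to 3), and with cyclic loess within each part (-0.35).

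**Figure D4:**
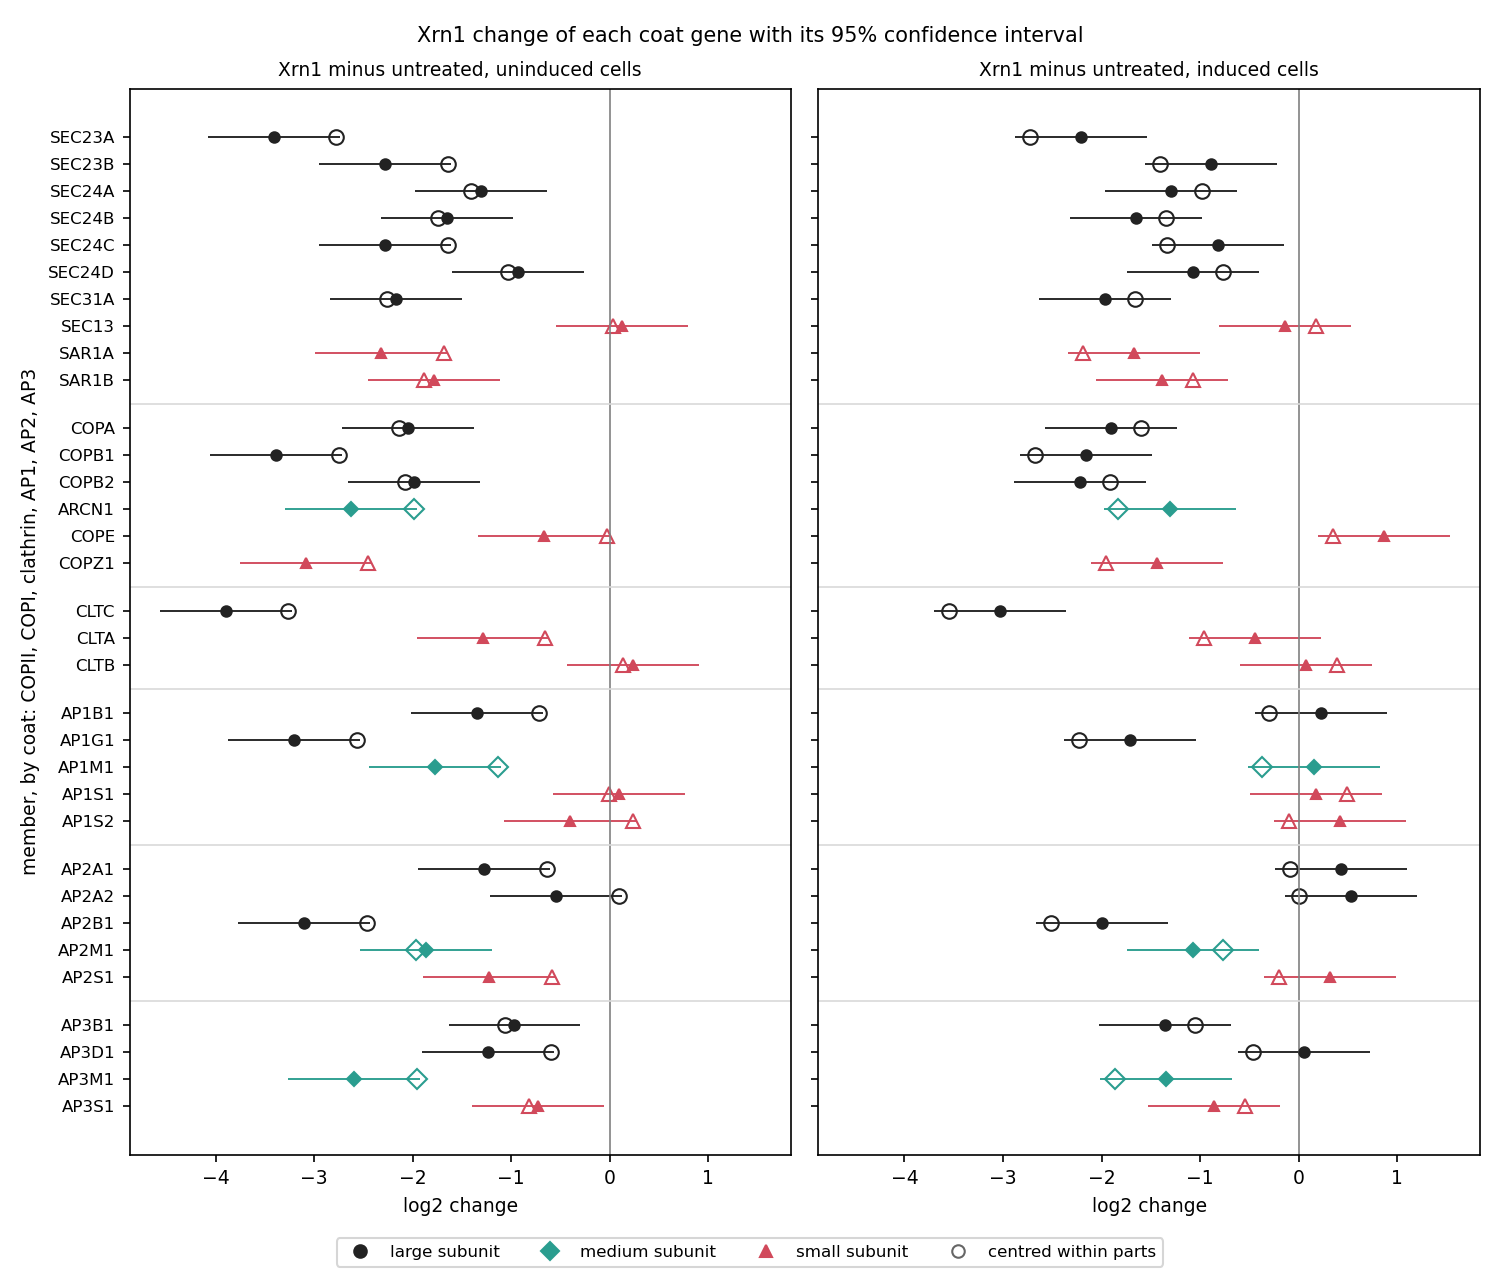
Log2 change with Xrn1 of each coat gene in uninduced (left) and induced cells (right), grouped by coat; filled symbols with 95% confidence intervals are values as deposited, open symbols those after centring within each part of the table, and shapes mark large, medium and small subunits. SEC13, CLTB and AP1S1, all small subunits, lie within 0.23 of 0 in both panels as deposited, and CLTC lies furthest to the left in both.

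The question for size is how many subunits of each class fell. In uninduced cells 17 of 18 large subunits fell (median change -2.02), as did 4 of 4 medium (-2.23) and 5 of 11 small subunits (-0.73), where 31.8% of all genes fell. In induced cells 14 of 18 large (median -1.51), 3 of 4 medium (-1.19) and 4 of 11 small subunits (-0.13) fell, and 1 small subunit rose, where 17.8% of all genes fell. Centred medians were -1.70, -1.96 and -0.59 for large, medium and small subunits in uninduced cells and -1.38, -1.30 and -0.20 in induced cells. The small ones that fell in both were SAR1A, SAR1B and COPZ1. These are counts and medians with no test, since subunits of a coat are not replicates and the lists were drawn up with results of these data known.

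The median of the large minus that of the small subunits was -1.29 in uninduced and -1.37 in induced cells, against an SD of 0.313 between arrays of a group for the same quantity. Over 26 alternatives it stayed negative, from -1.64 to -1.03 and from -1.74 to -1.17. After centring, 17 and 15 large subunits fell, against 4 and 5 small ones, with 1 small subunit higher in induced cells, where 32.3% and 27.3% of all genes fell. Cyclic loess within each part, which evens out differences that depend on signal, gave 15 large subunits lower in uninduced cells, with 3 small subunits lower and 4 higher, where 29.9% of all genes were lower and 32.1% higher. In induced cells it gave 14 large subunits lower and 1 higher, and 3 small ones lower and 3 higher, where 26.8% of all genes were lower and 27% higher. Without the 4 arrays that step, 17 large and 9 small subunits fell in uninduced cells and 14 and 4 in induced cells, where 28% of all genes were lower.

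The number of probe sets of a gene, which grows with its exons, had a weak relation to its change. Across the 33 members Spearman's rho between the number of probe sets above the cutoff and the change was -0.25 in uninduced and -0.26 in induced cells. Over all 16883 genes it was -0.31 and -0.27. Centred, rho was -0.30 and -0.25 for the members and -0.35 and -0.26 for all genes. These are descriptions across genes, which share arrays and are not independent.

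COPI and COPII genes had a median change of -2.11 in uninduced and -1.41 in induced cells, with 14 of 16 lower in each, and clathrin and adaptor genes -1.28 and 0.06, with 12 and 7 of 17 lower. Centred, the medians were -1.82 and -1.50 for COPI and COPII, with 14 of 16 lower in each, and -0.72 and -0.46 for clathrin and adaptors, with 11 and 9 of 17 lower and 1 higher in induced cells. The difference of the medians was -0.83 and -1.47, with an SD of 0.214 between arrays. It was -1.10 and -1.04 after centring. In uninduced cells it was -0.51 without uninduced untreated replicate 1 and -1.09 without uninduced untreated replicate 2. These too are descriptions with no test. All 10 large subunits of COPI and COPII fell in each comparison under both scalings. Of the 8 large clathrin and adaptor chains, 7 fell in uninduced and 4 in induced cells, and 7 and 5 after centring.

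Single probe sets, which read out different exons of the same RNA and are not replicates, fell together in the 4 genes with the largest falls in uninduced cells. Of 41 CLTC probe sets, 39 were lower in uninduced and 35 in induced cells. Of 21 SEC23A probe sets 20 and 17 were lower, of 26 COPB1 probe sets 23 and 19, and of 33 AP1G1 probe sets 29 and 18, with 1 higher. SEC13 had 2 lower and 1 higher of 22 in uninduced cells, and none of the 11 CLTB or 10 AP1S1 probe sets was lower. AP2A2 was mixed in uninduced cells, with 8 of 47 lower and 3 higher. Over all members, 462 of 795 probe sets were lower and 10 higher in uninduced cells, and 290 lower and 18 higher in induced cells. Of all probe sets tested, 10.8% were lower and 7.54% higher in uninduced cells, and 5.52% lower and 6.89% higher in induced cells. After centring the members' counts became 500 and 8, and 351 and 10, and the shares of all probe sets 12% and 7.29%, and 7.8% and 3.92%.

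The next comparison asks whether induction of K294A altered the effect of Xrn1, as the difference of the effect in induced minus that in uninduced cells. As deposited, 12 of 33 members had a smaller fall or a rise in induced cells, and none a larger fall. Over all genes, 20.6% passed as higher and 1.23% as lower. The largest differences were those of AP1M1 (1.92, 95% interval 0.98 to 2.87, adjusted p = 0.00981), AP2A1 (1.70, adjusted p = 0.0168) and COPZ1 (1.65, adjusted p = 0.0193). AP1M1 read 4.61, 4.88 and 4.80 against 3.03, 2.73 and 3.22 in uninduced cells and 3.34, 3.55 and 4.40 against 3.94, 3.69 and 4.12 in induced cells. The induced untreated replicates 1 and 2, both of which step, are the low ones of their group.

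All 12 lie in the second part of the table, where 36.7% of all genes passed as higher, and none of the 13 members in the first part passed, where 0.0287% of genes did. After each array was centred within each part, limma called none of the 33 members and 0% of all genes, with 2 members (AP1M1 at 0.77, 95% interval 0.30 to 1.24, and AP2M1 at 1.20, 0.60 to 1.80) and 1985 genes below an unadjusted p of 0.05. The adjusted p of AP1M1 and AP2M1 were then 0.261 and 0.247. The median difference of the members moved from 0.87 to 0.27. As deposited, the count was 0 without induced untreated replicate 1, induced Xrn1 replicate 1, induced Xrn1 replicate 3 or uninduced Xrn1 replicate 2, and 4 without uninduced untreated replicate 3. It was 8 without induced Xrn1 or uninduced untreated replicate 2, and 17 without induced untreated replicate 3. Over the 12 fits without 1 array, the share of all genes that passed as higher ran from 0.272% to 45.8%, and the highest share was that without induced untreated replicate 3. Centred, the standard error was 0.26 for a typical gene, and the interval for CLTC, the gene with the largest falls, ran from -1.39 to 0.81.

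**Figure D5:**
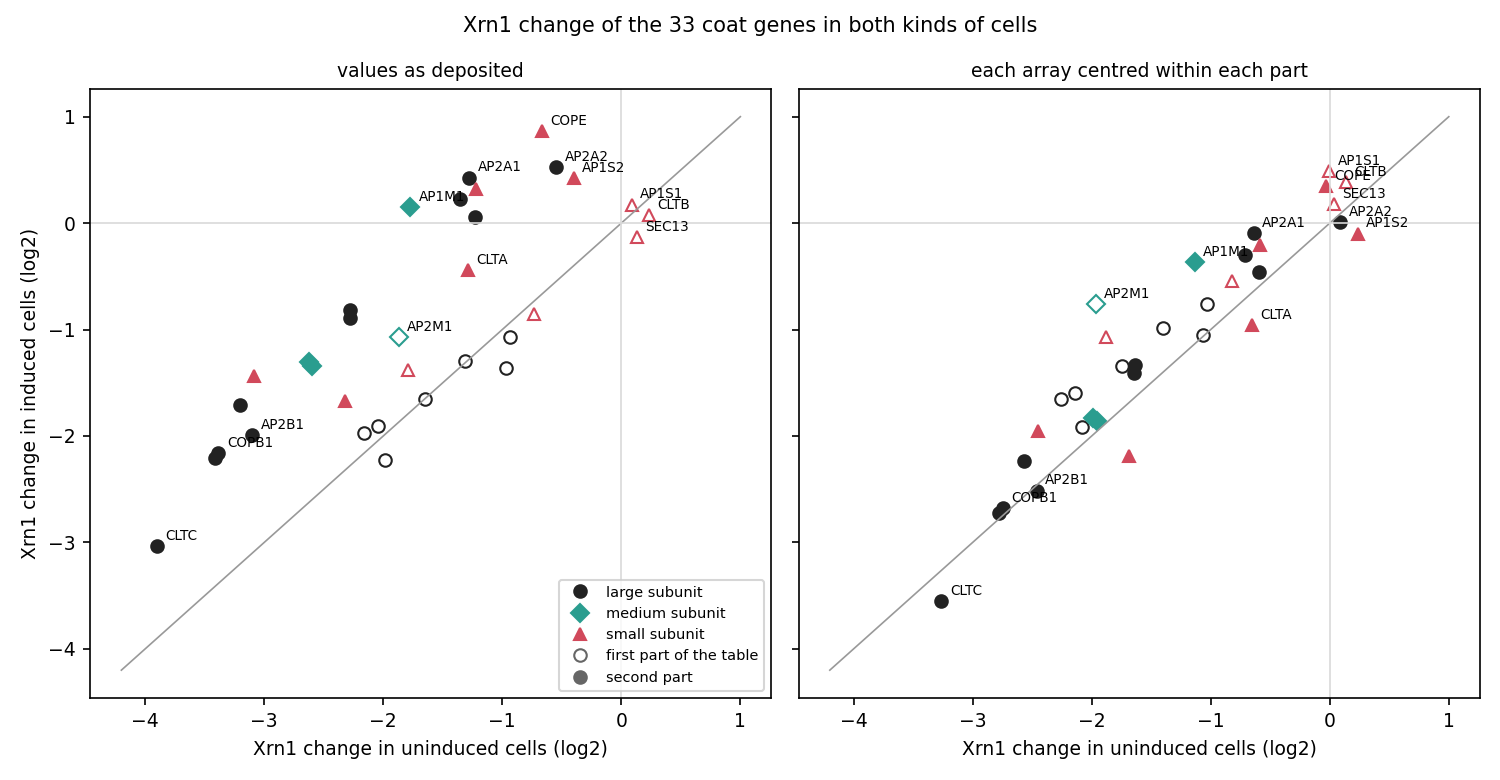
Log2 change with Xrn1 in induced cells (vertical) against that in uninduced cells (horizontal) for the 33 coat genes, as deposited (left) and after centring within each part (right); open symbols are genes of the first part of the table, filled ones those of the second, and the line marks equal changes. As deposited all 20 filled symbols lie above the line, by 0.65 to 1.92, the open ones differ from it by -0.39 to 0.80, and after centring AP2M1 is the furthest above it.

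In the fit to all 12 arrays, limma called no coat gene as changed by induction in untreated or in Xrn1-treated RNA. In untreated RNA the changes ran from -1.003 for AP1M1 to 0.27 for SEC13, with 16 members below an unadjusted p of 0.05 and 0.0415% of all genes passing. All 16 lie in the second part of the table, and after centring the range was -0.52 for AP2M1 to 0.04 for CLTC with 3 below that p. Leaving out induced untreated replicate 3, which leaves the 2 induced arrays that step, gave 18 members lower, with 37.9% of all genes lower. In bulk RNA of 1 line, a change in some of the cells and a change in all of them cannot be told apart. In Xrn1-treated RNA the changes ran from -0.35 for AP3B1 to 0.92 for AP1M1. There 7 members were below an unadjusted p of 0.05 (2 after centring), and 0.0592% of all genes passed. When only the groups compared were fitted, AP1M1, AP2S1, COPE, COPZ1 and SEC24C were called higher in Xrn1-treated RNA. No share of all genes is given for that fit, so these calls cannot be read as particular to coat genes.

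Of 60 other genes of coated vesicle transport, 31 fell and 1 rose with Xrn1 in uninduced cells, and 19 fell and 5 rose in induced cells. The shares of all genes were 31.8% lower and 7.24% higher, and 17.8% and 21.6%. After centring the counts were 29 and 7, and 25 and 7, of 56 genes that lie within 1 part of the table, where 32.3% and 34.8%, and 27.3% and 24.4%, of all genes fell and rose. COPG1, the gamma subunit that completes coatomer, fell by 1.72 and 1.47, (centred -1.82 and -1.16), while its paralogue COPG2 gave -0.23 and -0.60 without a call. HSPA8, the chaperone that strips clathrin from vesicles, changed by -3.68 and -2.84 (centred -3.05 and -3.36). PICALM, which binds clathrin and AP2, and AP5M1, of the adaptor AP5, had the next largest falls in uninduced cells as deposited, -2.95 and -2.75 (centred -2.31 and -2.11). In induced cells these were ARF4, a GTPase of Golgi transport, at -2.34 and the endocytic scaffold EPS15 at -1.96 (centred -2.02 and -1.64).

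A few accessory genes rose. The endocytic adaptor EPN1 rose by 1.88 in induced cells (centred 1.36), EPN3 by 1.18 (centred 0.66) and the clathrin adaptor GGA1 by 1.16 (centred 0.64). EPN3 and GGA1 lost their calls without induced untreated replicate 2 (0.81 and 0.81). SEC16B, of COPII exit sites, rose by 0.89 in uninduced cells (centred 0.80), a call that ended when untreated replicate 2 (0.63), Xrn1 replicate 2 (0.70) or Xrn1 replicate 3 (0.90) of those cells was left out. In the difference between induced and uninduced cells, 20 of these 60 genes passed as higher. Over all genes 20.6% did, and 36.7% of those in the second part of the table. The 20 were led by NECAP1 at 1.68, EPN2 at 1.64 and AP1M2 at 1.64. After centring EPN2 and AP1M2 stood at 0.49 and 0.49 and none passed, with 9 below an unadjusted p of 0.05.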

How the data were processed

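RNA from 12 samples was hybridised to Affymetrix exon arrays, and the deposited values are log2 probe set signals that the authors made with RMA in the R package oligo, per the submitters' processing notes. No version is given in the sources used here. RMA makes array distributions alike, so changes are relative. Of 1411399 probe sets, 357604 carried 1 gene symbol in the platform annotation. Of these, 258175 had a mean over the arrays above the median of all probe sets, 2.04, the signal cutoff used here. Being a median, it does not show that a probe set was detected. Of 19560 symbols, 16472 were current in RefSeq, 2966 were updated and 122 kept as written. A gene's value is the mean of its probe sets, with at least 3, for 16883 genes. The number of arrays limits the precision.

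The 4 group means were fitted with limma 3.58.1 in R 4.3.3 to all 12 arrays, with Benjamini-Hochberg adjustment over all genes and a threshold of 0.05. For values as deposited limma took 1 common SD of 0.418 for all genes, so a gene's own spread has no part in its p-value or interval. Values centred within parts of the table cover 16273 genes. Confidence intervals are 95% for single genes. Scripts were tested on simulated data. Alternatives changed the summary of probe sets, the filter, the scaling, the spread, the samples and the block. The 33 members are all named, as are, of other coat genes, the 3 largest rises and falls that passed in each Xrn1 comparison and in their difference, with COPG1, COPG2 and RNGTT. The members, the lists and the tests were chosen with earlier results of these data known. Replicates were numbered in sample order, since 1 label repeats a number.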

Additional observations from a re-analysis of the deposited data

Results flagged for a closer look

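In values as deposited, the effect of Xrn1 differed between induced and uninduced cells for 12 coat genes by limma's test of the difference itself. Over all genes, 20.6% passed as higher in that test. Differences are on the log2 scale. The difference, induced minus uninduced, was 1.39 for SEC23B, 1.46 for SEC24C, 1.53 for COPE, 1.65 for COPZ1 and 1.31 for ARCN1. It was 1.57 for AP1B1, 1.49 for AP1G1, 1.92 for AP1M1, 1.70 for AP2A1, 1.54 for AP2S1, 1.29 for AP3D1 and 1.25 for AP3M1. All 12 lie in the second part of the table, after the place where 4 arrays change level, and 36.7% of all genes there passed as higher. None of the 12 passed after each array was centred within each part.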

How the results depend on the processing

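Of 26 members that fell with Xrn1 in uninduced cells, 17 kept their call under all alternatives run, as did 12 of 21 in induced cells and none of the 12 that differed between them. The alternatives added after seeing the data were centring or cyclic loess within each part of the table, and leaving out the 4 arrays that step. The last keeps only replicate 3 of the induced untreated arrays.

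In uninduced cells 2 members rose with cyclic loess and 4 with cyclic loess within parts. Over all genes, cyclic loess within parts gave 32.1% higher in uninduced and 27% higher in induced cells. In induced cells 12 fell with each gene's own spread. There 3 rose with cyclic loess, 4 with cyclic loess within parts, 0 with the own spread and 0 to 2 without 1 array. The members that differed between induced and uninduced cells numbered 4 with the median of probe sets and 5 with the upper-quartile filter. They numbered 3 with arrays centred on the median gene, and 0 with cyclic loess, the own spread or either scaling within parts. Without both arrays of sample number 5 they numbered 0, and without 1 array 0 to 17. Induction lowered 0 to 18 members in untreated RNA without 1 array. In Xrn1-treated RNA it raised 5 members when only the groups compared were fitted and 2 without the 4 arrays. In the fits without 1 array, 0.272% to 45.8% of all genes passed as higher in the difference. Where no share of all genes is given for a setting, its count cannot be read as particular to coat genes. With the sample number as a replicate block, 0 members rose in induced cells and 1 differed between the cells, and in induced cells the calls of SEC23B, SEC24C, AP3S1 and COPE ended. The labels do not state what the number shares, and correlations of same-numbered samples ran from -0.71 to 0.13, and from -0.46 to 0.04 centred within parts, so pairing was not assumed.

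Large minus small subunits gave -1.64 in uninduced cells with cyclic loess within parts and -1.74 in induced cells with cyclic loess; their difference between cells gave 0.0718 without sample number 5, -0.0257 centred within parts and -0.20 without the 4 arrays. COPI and COPII minus clathrin and adaptors gave, in uninduced cells, -1.05 with cyclic loess, -1.10 and -1.19 centred and with cyclic loess within parts, -1.21 without sample number 5 or the 4 arrays, and -1.09 to -0.51 without 1 array; in induced cells -1.04 and -1.09 within parts and -1.23 without the 4 arrays; and for the difference 0.0384 and 0.13 within parts, -0.0717 without sample number 5, -0.0659 without the 4 arrays, and -0.79 to -0.22 without 1 array. Single probe sets higher in induced cells numbered 10 centred within parts.

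Signs of genes called under either setting turned in uninduced cells for AP1S1 (-0.53) and CLTB (-0.63) without the 4 arrays, for AP2S1 (0.57) and CLTA (0.0828) with cyclic loess, and for AP1S2 (0.76), AP2S1 (0.75) and CLTA (0.20) with cyclic loess within parts. In induced cells they did for AP1M1 (-0.36) and AP2M1 (0.18) with cyclic loess within parts and AP3D1 (-0.46) centred within parts, and for the difference in AP3M1 (-0.0049) with cyclic loess within parts. Values without a call also changed sign. The cause was not tested. A split by protein length was not run.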
